A study of Mus musculus with 16 samples.

Results

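The 8 genes described here encode the enzymes and the inhibitor-binding protein that make, interconvert and break down polyamines: Odc1, Azin1, Amd1, Srm, Sms, Smox, Paox and Sat1. They belong to that textbook pathway and were chosen by name, with earlier results of these data known. They are 8 of the 29730 genes counted by RNA sequencing in tibialis anterior, a fast muscle of the lower hind limb. All 8 passed the filter on low counts, as did 14960 genes in all. The 16 mice were males of strain C57BL/6N aged 7 weeks, with 4 in each group: wild type injected with phosphate-buffered saline (WT_PBS), wild type injected with the antisense oligonucleotide ASO1 against Dnm2 (WT_ASO), Bin1mck-/- mice given PBS (KO_PBS) and Bin1mck-/- mice given ASO1 (KO_ASO). Bin1mck-/- is a mouse model of recessive centronuclear myopathy, a muscle disease linked to BIN1, whose protein binds and bends membranes, and DNM2 is a GTPase that cuts them. Neither the dose, route and schedule of the oligonucleotide nor the part of Bin1 that was deleted, and in which cells, could be taken from the labels. The design asks whether the loss of Bin1 changed these transcripts and whether ASO1 moved them back. No group was given a control oligonucleotide, so lowering Dnm2 and giving an oligonucleotide cannot be told apart.

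Putrescine, spermidine and spermine are small positively charged molecules that bind nucleic acids and are needed for growth and protein synthesis, and spermidine is also the donor for the hypusine residue of eIF5A. Odc1 (ornithine decarboxylase) makes putrescine, and Amd1 (S-adenosylmethionine decarboxylase) makes the aminopropyl donor that Srm (spermidine synthase) and Sms (spermine synthase) use to lengthen it. Azin1 (antizyme inhibitor) protects ornithine decarboxylase from antizyme, the protein that leads it to degradation. In the opposite direction, Smox (spermine oxidase) turns spermine back to spermidine, Sat1 acetylates spermidine and spermine, and Paox oxidises the acetylated forms. Several of these enzymes are controlled in their translation and their breakdown, so the mRNA levels given here are not enzyme levels. In muscle, polyamine enzymes are known to follow atrophy and growth signals.

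Amd1 and Smox were the members that changed. In KO_PBS muscle the mean level of Amd1 was 14.2% and that of Smox 15.8% of the WT_PBS mean. In KO_ASO muscle they stood at 53.9% and 50.5% of it. The other 6 members did not pass the edgeR quasi-likelihood test in any of the 6 comparisons made, although DESeq2 or limma-voom called Srm in 2 of them.

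The libraries held between 27591900 and 40862854 counted reads, and correlations of log2 CPM within a group ran from 0.974 to 0.988. Levels are given as CPM, counts scaled to library size with edgeR's TMM factors. Bin1 fell from 494.7 ± 40.6 CPM (SD, n = 4) in WT_PBS to 44.9 ± 3.27 CPM in KO_PBS, and Dnm2 from 62.8 ± 3.63 CPM in KO_PBS to 24.8 ± 4.48 CPM in KO_ASO, with no overlap between groups for either gene. The summed level of 8 fibre genes (such as Acta1, skeletal actin, and Ckm, muscle creatine kinase) lay between 105300 and 211900 CPM in every library. The labels number the mice within a group and say nothing of litters or cohorts, so p-values measure the spread between these samples.

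The promoter windows of Amd1 and Smox are shown because these are the members whose mRNA moved, and moved together. Sequences are from RefSeq, build GRCm38.p6, 5′ to 3′ on the strand of the gene. Capitals mark every match, on either strand, to CANNTG (the E-box core, bound by factors such as MYC and the myogenic regulators), TATANA (found in core promoters that fix where transcription starts) or GGGCGG (the GC-box core). For Amd1 the 250 bases before the start site are given (chr10:40302189-40302438, minus strand). For Smox only 110 bases are given (chr2:131491654-131491763, plus strand), from 208 to 99 bases before the RefSeq start site, because exons of other annotated transcripts cover the rest of the window. The stretch lies inside the Smox gene as GENCODE annotates it, from chr2:131491496 on.
Amd1: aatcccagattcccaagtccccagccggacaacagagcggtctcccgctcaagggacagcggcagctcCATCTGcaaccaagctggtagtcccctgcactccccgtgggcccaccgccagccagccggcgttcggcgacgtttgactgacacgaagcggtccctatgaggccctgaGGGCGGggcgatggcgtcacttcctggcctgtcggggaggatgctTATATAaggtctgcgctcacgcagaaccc
Smox: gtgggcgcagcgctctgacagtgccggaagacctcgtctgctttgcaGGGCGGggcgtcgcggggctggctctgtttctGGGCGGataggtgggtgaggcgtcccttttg

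Both stretches were rich in G and C, at 64.4% for Amd1 and 67.3% for Smox. The Amd1 window held 1 CANNTG, 1 GGGCGG and, 29 bases before the start, 1 TATANA. Over the whole 250 bases before its RefSeq start, part of them exonic, Smox held 6 GGGCGG and 1 CANNTG and no TATANA. These letters are common: of 32851 mouse promoter windows of 250 bases, 66.2% held CANNTG, 32.7% held GGGCGG and 22.6% held TATANA. The form of the E-box that MYC and MAX prefer, CACGTG, is itself a case of CANNTG and stood in 6.02% of all windows. Among the 6 members with a window in the table it was found in Sms alone, whose transcript did not pass the test in any comparison. TGACGTCA, the cAMP response element, stood in 1.55% of windows and in none of the 6. Azin1 and Srm have no window in the table. The matches describe letters and not bound sites.

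Levels of different genes were compared per kilobase of exon (RPKM, the CPM divided by exon length in kilobases). Smox was the most abundant member in WT_PBS at 139.7 ± 40.2 RPKM (SD, n = 4), and Amd1 came next at 28.6 ± 9.77 RPKM. Odc1 (12 ± 3.13 RPKM), Azin1 (11.2 ± 4.26 RPKM) and Sms (11.1 ± 2.91 RPKM) followed and did not differ beyond their spread. Sat1 stood at 6.19 ± 0.436 RPKM and Srm at 3.11 ± 0.631 RPKM. Paox was close to the lower end of what was counted, at 0.449 ± 0.0734 RPKM. The order in KO_PBS was another one. Smox was still first at 22.1 ± 8.35 RPKM, but its lead over Azin1 (15.6 ± 2.30 RPKM) was within the spread, and Amd1 had dropped to 4.06 ± 1.39 RPKM, next to Srm at 4.04 ± 0.263 RPKM. The place of Amd1 in both orders is uncertain. Of the 50-base words in its transcripts 78.1% also occur in other genes, beside 2.01% for Srm. If reads that fit several genes were not counted, the RPKM of Amd1 is too low.

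**Figure D1:**
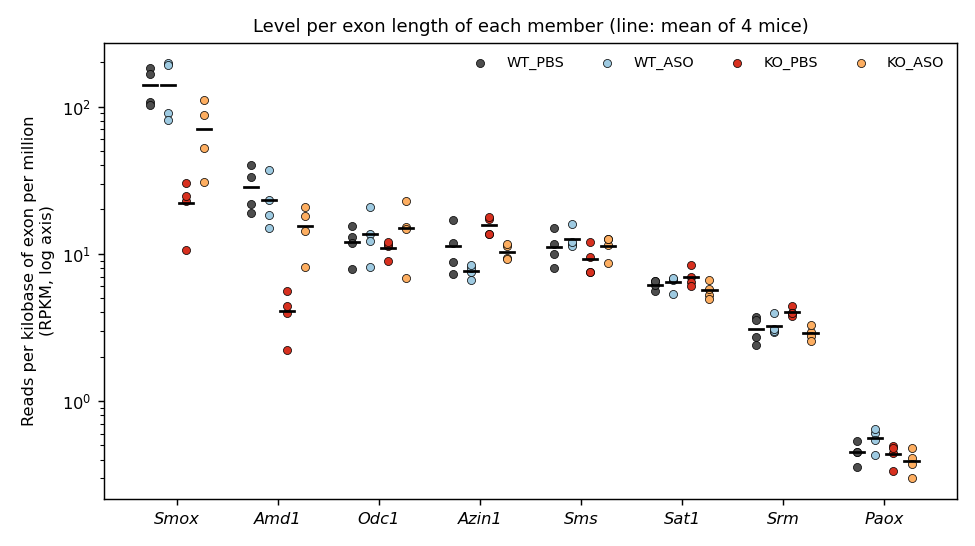
Level of each of the 8 members in RPKM (vertical log axis) by group, with 1 point per mouse and a line at the mean of 4 mice. Smox leads in every group, from a mean of 139.7 RPKM in WT_PBS to 22.1 RPKM in KO_PBS, and Amd1 goes from second place in WT_PBS (28.6 RPKM) to the level of Srm in KO_PBS (4.06 against 4.04 RPKM). The place of Amd1 among the members is uncertain, since 78.1% of its 50-base words also occur in other genes.

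Amd1 (ENSMUSG00000075232, GRCm38 chr10:40287458-40302186, minus strand) supplies decarboxylated S-adenosylmethionine, without which neither spermidine nor spermine can be made. Its level in the 4 WT_PBS mice was 77.7, 141, 67.4 and 118 CPM. In KO_PBS it was 7.91, 19.8, 14.1 and 15.8 CPM. Every KO_PBS mouse was therefore far below the lowest WT_PBS mouse. In KO_ASO the values were 64.4, 50.7, 74.2 and 28.7 CPM, all above the highest KO_PBS mouse, and replicate 3 lay inside the WT_PBS range. The WT_ASO mice had 52.9, 131, 81.9 and 65.0 CPM and overlapped WT_PBS.

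The log2FC of Amd1 between KO_PBS and WT_PBS was -2.81 (SE 0.378, 95% interval -3.62 to -2.004, adjusted p = 0.000289, edgeR quasi-likelihood test), a level 7.02-fold lower. Between KO_ASO and KO_PBS it was 1.92 (SE 0.368, 95% interval 1.14 to 2.71, adjusted p = 0.0108), a level 3.79-fold higher. Amd1 kept both calls under each of the 7 other settings and in each of the 16 fits that left out 1 mouse. A share of 78.1% of the 50-base words in its transcripts also occurs in other genes, 76.7% in Amd2 alone, so its reads cannot be fully told from those of its copies. The counts for Amd1, Amd2 and 3 Amd pseudogenes were also summed, which was chosen after the values were seen. The sum was 104.1 ± 38.5 CPM in WT_PBS, 14.7 ± 4.83 CPM in KO_PBS and 54.9 ± 19.9 CPM in KO_ASO, and Amd1 gave 97.1% to 99.2% of it, depending on the group. With such a share the sum had to follow Amd1. How reads that fit several copies were counted is not known here, so the sum cannot settle their part.

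Smox (ENSMUSG00000027333, chr2:131491496-131525922, plus strand) oxidises spermine to spermidine and releases hydrogen peroxide. The WT_PBS mice had 421, 708, 400 and 647 CPM. The KO_PBS mice had 41.0, 88.4, 96.5 and 118 CPM. As for Amd1, replicate 1 was the lowest of the KO_PBS group and replicate 2 the highest of the WT_PBS group. The KO_ASO mice spread widely, at 344, 205, 432 and 119 CPM. The lowest of them (119.4 CPM, replicate 4) was only just above the highest KO_PBS mouse (118.1 CPM), and only replicate 3 lay inside the WT_PBS range. In WT_ASO the values were 354, 764, 745 and 314 CPM, on both sides of the WT_PBS range.

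Smox was 6.32-fold lower in KO_PBS than in WT_PBS, with a log2FC of -2.66 (SE 0.443, 95% interval -3.61 to -1.71, adjusted p = 0.00153). It was 3.20-fold higher in KO_ASO than in KO_PBS, with a log2FC of 1.68 (SE 0.428, 95% interval 0.76 to 2.59, adjusted p = 0.0448). The first call was kept in every fit. The second was close to the threshold and its adjusted p rose above 0.05 in 11 of the 16 fits that left out 1 mouse: without WT_PBS replicate 1 (adjusted p = 0.0565), 2 (0.0552), 3 (0.0554) or 4 (0.0590), without KO_PBS replicate 1 (0.133), 2 (0.0834), 3 (0.0767) or 4 (0.0708), and without KO_ASO replicate 1 (0.127), 2 (0.0635) or 3 (0.127). Without KO_ASO replicate 4 it was 0.0164. Over the 16 fits the log2FC ran from 1.37 to 1.93. It was lowest without KO_ASO replicate 3 (1.37), KO_PBS replicate 1 (1.44) or KO_ASO replicate 1 (1.55), the fits with the highest adjusted p. Without any 1 of the WT_PBS mice it was 1.68, so there the call was lost with no change in size. The call was also lost with no filter on low counts (log2FC 1.67, adjusted p = 0.129), with the compared groups alone (1.68, 0.0943) and with a replicate block (1.69, 0.0611). No 50-base word of Smox occurs in another gene. The exact two-sided permutation test over 4 against 4 mice gave 0.0286 for Amd1 and for Smox in both comparisons, the smallest p it can give, and 40 such tests were run over the members.

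**Figure D2:**
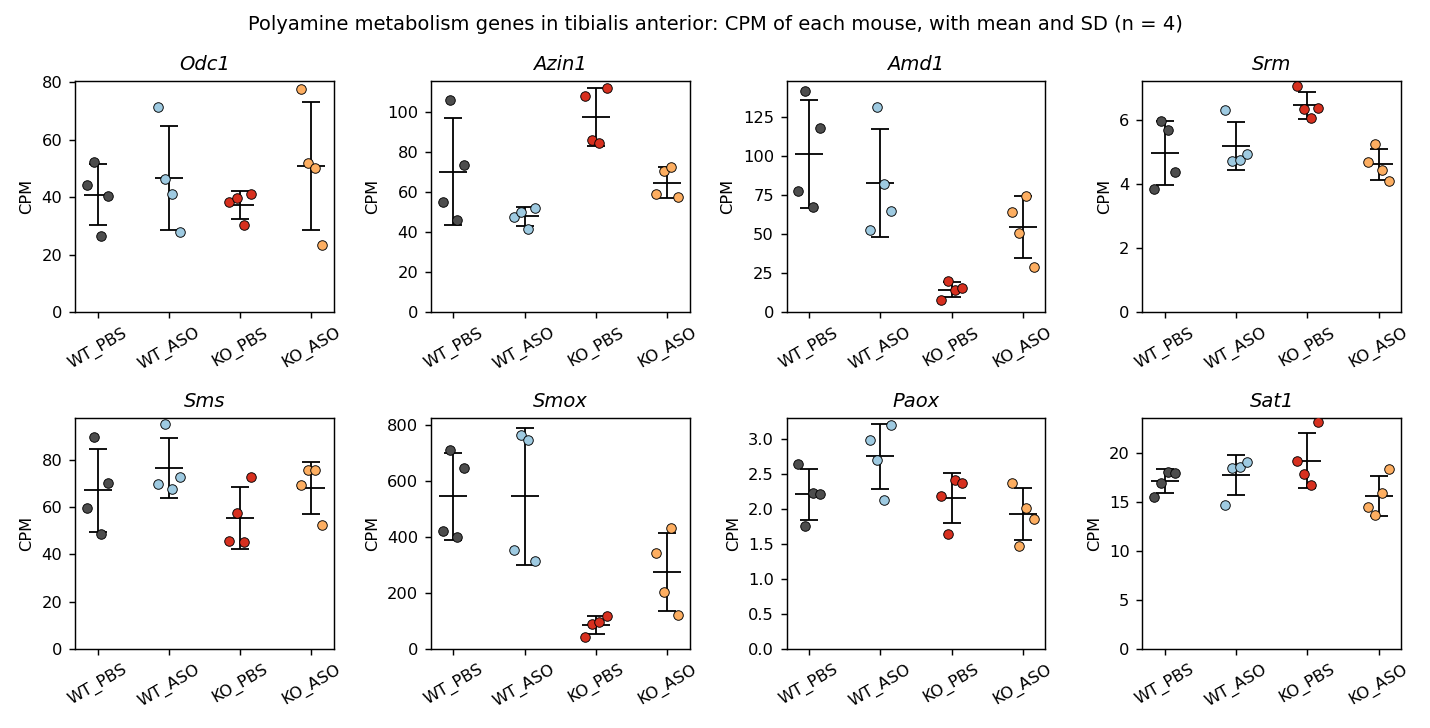
CPM of each of the 8 members (vertical axis, from 0, with its own scale in each panel) in the 4 groups, with 1 point per mouse, a bar at the mean and whiskers of 1 SD (n = 4). The KO_PBS mice lie below all WT_PBS mice for Amd1 (at most 19.8 CPM against at least 67.4 CPM) and Smox (at most 118 CPM against at least 400 CPM), and no other panel shows such a gap between these 2 groups.

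At the first step of the pathway, Odc1 and Azin1 did not pass the test in any comparison. Odc1 (ENSMUSG00000011179, chr12:17544794-17551505, plus strand), the enzyme that commits ornithine to polyamines, had 44.1, 52.2, 26.7 and 40.4 CPM in WT_PBS and 38.5, 39.6, 30.3 and 41.1 CPM in KO_PBS. These ranges lie over each other, and the log2FC was -0.13 (SE 0.318, adjusted p = 0.836). In KO_ASO it had 77.7, 52.0, 50.2 and 23.3 CPM, a wider spread than in any other group, and the log2FC against KO_PBS was 0.45 (SE 0.318, adjusted p = 0.522). For a gene this variable the 95% interval of the KO_PBS difference, -0.81 to 0.55, leaves room for a change of some size either way. Of the 50-base words of Odc1, 24.3% also occur in other genes. The 4 that share most, at up to 11.7% each, had a mean of at most 1.19 reads a library.

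Azin1 (ENSMUSG00000037458, chr15:38487427-38519266, minus strand) resembles ornithine decarboxylase without its activity and titrates antizyme. It had 55.0, 106, 46.0 and 73.6 CPM in WT_PBS and 108, 85.8, 84.7 and 112 CPM in KO_PBS. One WT_PBS mouse, replicate 2, reached the KO_PBS values, and the log2FC of 0.48 (SE 0.196) did not pass the test (adjusted p = 0.126). Without that mouse the log2FC was 0.74 (adjusted p = 0.00806), and with library totals it was 0.64 (adjusted p = 0.0374). In KO_ASO the level was 58.9, 70.5, 72.4 and 57.4 CPM, below every KO_PBS mouse, with a log2FC of -0.59 (SE 0.197) that also did not pass (adjusted p = 0.113), or 0.0340 without the same WT_PBS replicate 2, which then changes only the shared estimates of the fit. With the compared groups alone it passed (log2FC -0.59, adjusted p = 0.0368). The WT_ASO mice had 47.4, 50.2, 41.4 and 52.2 CPM, and the log2FC against WT_PBS was -0.55 (SE 0.197, unadjusted p = 0.0130, adjusted p = 0.736). In both genotypes the Azin1 mean was thus lower with ASO1, by amounts that did not pass after adjustment.

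The synthases that add aminopropyl groups did not pass the test by edgeR in any comparison. Srm (ENSMUSG00000006442, chr4:148591503-148594993, plus strand), which makes spermidine from putrescine, had 3.86, 5.96, 5.68 and 4.39 CPM in WT_PBS and 7.06, 6.35, 6.07 and 6.36 CPM in KO_PBS. All KO_PBS mice were above all WT_PBS mice, by a narrow margin, and the log2FC of 0.38 (SE 0.145) had an adjusted p of 0.0977. In KO_ASO it had 4.70, 5.24, 4.43 and 4.11 CPM, again without overlap with KO_PBS, with a log2FC of -0.48 (SE 0.146, adjusted p = 0.0774). The calls of Srm depended on the method. In KO_ASO against KO_PBS, DESeq2 gave an adjusted p of 0.0279, limma-voom with sample quality weights 0.0450 and scaling by library totals 0.0386, and for KO_PBS against WT_PBS limma-voom gave 0.0321 and library totals 0.0263.

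Sms (ENSMUSG00000071708, chrX:157443855-157492287, minus strand), which makes spermine from spermidine, had 59.7, 89.6, 48.5 and 70.2 CPM in WT_PBS and 45.4, 57.4, 45.1 and 72.9 CPM in KO_PBS. The groups overlapped, and the log2FC was -0.28 (SE 0.192, adjusted p = 0.382). In KO_ASO it had 69.4, 75.7, 75.5 and 52.3 CPM and a log2FC of 0.30 against KO_PBS (SE 0.192, adjusted p = 0.452). A pseudogene, Sms-ps, shares 17.4% of its 50-base words and had a mean of 9.94 reads a library.

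On the breakdown side, Paox and Sat1 in KO_PBS stayed near their WT_PBS levels, unlike Smox. The Paox mean was 97.5% of the WT_PBS mean in KO_PBS, 87.1% in KO_ASO and 125% in WT_ASO. Paox (ENSMUSG00000025464, chr7:140115799-140137224, plus strand) had 2.63, 1.75, 2.23 and 2.21 CPM in WT_PBS and 2.18, 1.64, 2.41 and 2.37 CPM in KO_PBS, with a log2FC of -0.04 (SE 0.188, 95% interval -0.44 to 0.36, adjusted p = 0.923). Its interval is far from the size of the Smox change. Its 3 lowest mice, at 1.47, 1.64 and 1.75 CPM, were replicate 2 of KO_ASO, of KO_PBS and of WT_PBS, while replicate 2 of WT_ASO had 2.69 CPM. The library kit marks strand but the strand setting of the counting is not known here, and 142 exon bases of Paox overlap the far more abundant Echs1 on the other strand (mean count 4014), so its value is uncertain.

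Sat1 (ENSMUSG00000025283, chrX:155213132-155216449, minus strand), the acetyltransferase that marks polyamines for export and oxidation, was the steadiest member in WT_PBS, with a coefficient of variation of 7.04%. It had 15.5, 17.0, 18.1 and 18.03 CPM in WT_PBS, 19.2, 17.9, 16.8 and 23.1 CPM in KO_PBS and 14.5, 13.7, 15.9 and 18.4 CPM in KO_ASO. The log2FC was 0.16 (SE 0.117, 95% interval -0.08 to 0.41, adjusted p = 0.396) for KO_PBS against WT_PBS and -0.30 (SE 0.118, adjusted p = 0.179) for KO_ASO against KO_PBS. Groups overlapped in both.

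Counted over the members, 2 of 8 were lower and 0 higher in KO_PBS than in WT_PBS at an adjusted p under 0.05, where 12.6% of all genes tested passed in either direction and 5.12% were lower. Groups did not overlap for 3 of 8 members (Amd1, Smox and Srm), against 20.4% of all genes. These shares and those below are on 8 genes chosen with earlier results of these data known, and say little of the pathway as a whole. The median log2FC of the members was -0.08, and that of all genes -0.01. In KO_ASO against KO_PBS, 2 of 8 were higher and 0 lower, where 3.64% of all genes passed in either direction and 0.802% of all genes were higher. Groups did not overlap for 4 of 8 members (Amd1, Smox, Azin1 and Srm), against 10.4% of all genes, and the member median was 0.07 beside 0.01 for all genes. Both comparisons use the same KO_PBS mice, so a low or high draw of that group moves both in opposite directions.

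**Figure D3:**
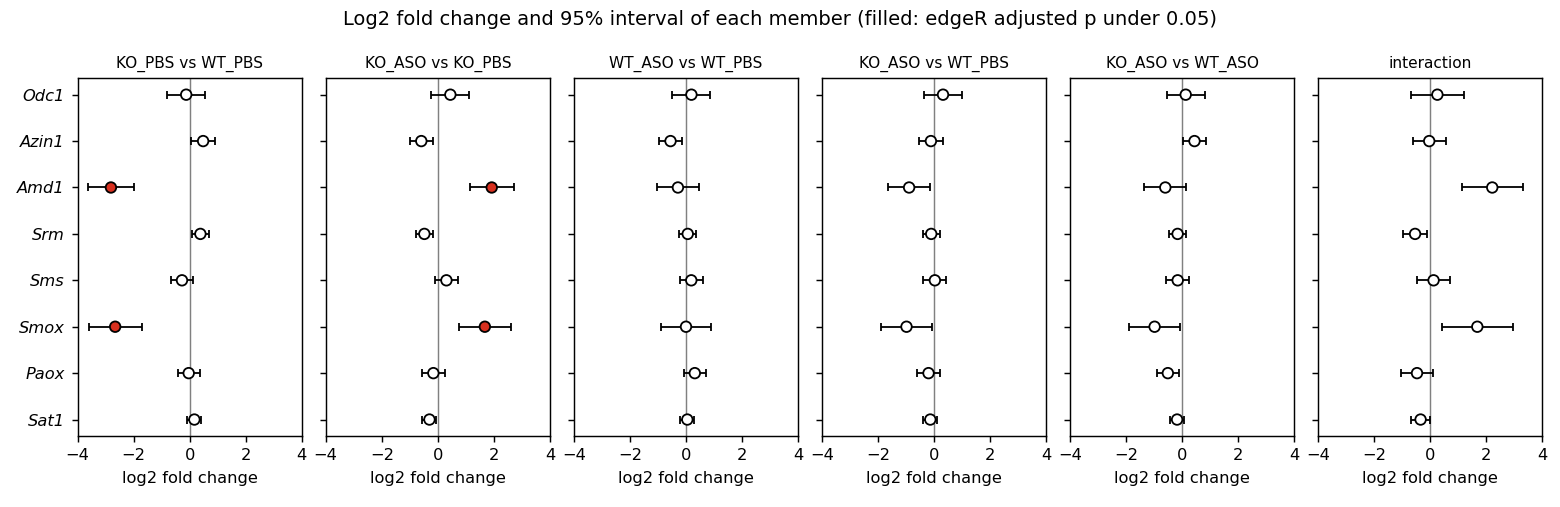
Log2 fold change (horizontal axes) of each member in the 6 comparisons, as points with 95% intervals, where filled points passed an adjusted p under 0.05. Amd1 and Smox are filled in KO_PBS vs WT_PBS (-2.81 and -2.66) and in KO_ASO vs KO_PBS (1.92 and 1.68), and no other point is filled.

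In wild-type muscle no member passed the test for a change with ASO1. By edgeR 0 of 8 passed in WT_ASO against WT_PBS, as did 0 of 8 by DESeq2 and limma-voom, and 1 member, Azin1, had an unadjusted p under 0.05. Of all genes tested 0.00668% passed by edgeR, which is 1 gene, and 6.45% had an unadjusted p under 0.05. The log2FC of Smox was 0.00 (SE 0.416) and that of Amd1 -0.29 (SE 0.350), but their 95% intervals, -0.89 to 0.89 and -1.04 to 0.46, leave room for changes in either direction.

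Treated Bin1mck-/- mice were then set against both wild-type groups. Against WT_PBS, 0 of 8 members passed by edgeR, DESeq2 or limma-voom. Of all genes 0.0401% passed by edgeR, which is 6 genes, and DESeq2 called 95. The log2FC was -0.89 for Amd1 (SE 0.354, 95% interval -1.65 to -0.14, unadjusted p = 0.0240, adjusted p = 0.547) and -0.98 for Smox (SE 0.420, 95% interval -1.88 to -0.09, unadjusted p = 0.0339, adjusted p = 0.556), so neither passed after adjustment, although neither interval on its own includes 0. Of all genes 8.22% had an unadjusted p under 0.05, as did these 2 of 8 members. Against WT_ASO again 0 of 8 passed by edgeR, DESeq2 or limma-voom, where 0.0735% of all genes did by edgeR, and 3 of 8 had an unadjusted p under 0.05, beside 15.1% of all genes. Azin1 was higher in every KO_ASO mouse than in every WT_ASO mouse, as were 2.96% of all genes, but its log2FC of 0.44 (SE 0.197) had an adjusted p of 0.307. Paox stood at -0.51 (SE 0.19, adjusted p = 0.227) and Smox at -0.99 (SE 0.420, adjusted p = 0.288).

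Whether ASO1 acted differently in the 2 genotypes was tested as the interaction, the log2FC of KO_ASO over KO_PBS minus that of WT_ASO over WT_PBS. No member passed by edgeR, where 0.575% of all genes did. Amd1 came closest, at 2.21 (SE 0.505, unadjusted p = 0.000588, adjusted p = 0.0672). DESeq2 gave it an adjusted p of 0.000701 and limma-voom 0.0226, and edgeR gave 0.0374 without KO_ASO replicate 4 and 0.0368 without WT_ASO replicate 2. For Smox the interaction was 1.68 (SE 0.593, unadjusted p = 0.0132, adjusted p = 0.244). Amd1, Smox and Srm (-0.54, SE 0.206, unadjusted p = 0.0176, adjusted p = 0.268) were the members with an unadjusted p under 0.05, 3 of 8 beside 12.7% of all genes.

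Amd1 and Smox also varied together from mouse to mouse. Over the 16 mice the Pearson correlation of their log2 CPM was 0.971, which in part reflects the groups, and that of their deviations from the group means was 0.90. Of 14959 other genes tested, Smox ranked 4 by likeness to Amd1 over all mice and 7 by deviations. The points share their library and its scaling, and these correlations are descriptions. In WT_PBS, replicates 2 and 4 were the higher mice for both genes and replicates 1 and 3 the lower. In KO_ASO, replicate 4 was the lowest for Amd1, Smox, Odc1, Sms, Azin1 and Srm, was the highest for Sat1, and had the highest Dnm2 of that group, 31.1 CPM beside 20.7 to 24.4 CPM in the other 3 mice. Whether the remaining Dnm2 has a part in that mouse's levels was not tested.

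**Figure D4:**
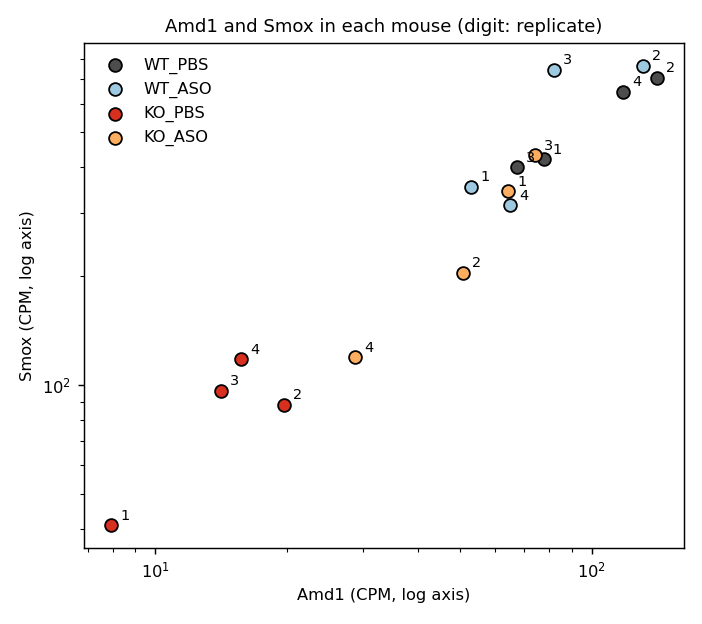
Smox against Amd1 in CPM (both log axes), with 1 point per mouse, coloured by group and marked with the replicate's digit. The 4 KO_PBS mice lie at the lower left (Amd1 7.91 to 19.8 CPM), KO_ASO replicate 4 next to them (28.7 CPM), and replicate 2 (50.7 CPM) between it and the wild-type mice, while KO_ASO replicates 1 and 3 (64.4 and 74.2 CPM) lie among the lower wild-type mice.

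Other pairs of members were less alike. The deviations of Sms correlated with those of Amd1 at 0.786, of Azin1 at 0.750 and of Smox at 0.648, while those of Odc1 and Sat1 ran against each other at -0.563. Across all 16 mice Azin1 and Amd1 stood at -0.520, but within groups at 0.386.

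The 5 genes most like Amd1 over the 16 mice were Cdk19, a kinase of the Mediator complex (r = 0.975), Msrb3, a methionine sulfoxide reductase (0.974), Mapk9, the stress kinase JNK2 (0.971), Smox, and Gid4, a substrate receptor of a ubiquitin ligase (0.964). The 5 most like Smox were Gpd2, the mitochondrial glycerol-3-phosphate dehydrogenase (0.978), Gid4 (0.976), the noncoding Gm12319 (0.972), Camk2a, a calcium and calmodulin dependent kinase (0.972), and Amd1. Since the measure runs over all 4 groups, the choice largely fixes that these genes are low in KO_PBS, and their differences between groups are given as a description. The log2FC in KO_PBS against WT_PBS of the genes other than Amd1 and Smox ran from -0.62 for Mapk9 to -1.33 for Cdk19, and in KO_ASO against KO_PBS from 0.44 for Mapk9 to 0.85 for Cdk19. The correlations of their deviations from the group means, which leave the groups out, ran from 0.85 to 0.951.

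Cdk19 is also a genomic neighbour of Amd1, on the other strand and 37.4 kb away (chr10:40339564-40483818), which was noticed after the values were seen. Its log2FC in KO_PBS against WT_PBS was -1.33 (SE 0.243), given with no test since Cdk19 was picked for its likeness to Amd1. The other 3 tested genes within 200 kb of Amd1 did not pass in that comparison. They were Gtf3c6 (-0.11, SE 0.0868), Rpf2 (0.06, SE 0.106) and Slc16a10 (-0.20, SE 0.194). Around Smox, 3 genes were tested within 200 kb, and Adra1d (0.57, SE 0.414), Rnf24 (0.14, SE 0.19) and Pank2 (-0.12, SE 0.0906) did not pass either.

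The wider pathway was read from 6 further lists of genes, and the share of all genes tested that passed in KO_PBS against WT_PBS was 12.6%. Among antizymes and paralogues, 1 of 5 tested genes was lower in KO_PBS than in WT_PBS and none higher. It was Azin2, the second antizyme inhibitor, with a log2FC of -0.77 (SE 0.187, adjusted p = 0.0132) at a low level (1.67 CPM in WT_PBS). The antizyme genes of the list did not pass by edgeR, and limma-voom called Oaz2 in KO_PBS against WT_PBS. Amd2, the copy of Amd1, had a log2FC of -2.04 but only 0.537 CPM in WT_PBS, and did not pass by edgeR (SE 0.674, adjusted p = 0.0576), while DESeq2 called it.

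Among genes for the supply of arginine and ornithine, 2 of 4 passed, where 12.6% of all genes did. They moved in opposite directions, and both import arginine and other cationic amino acids. Slc7a1 was higher in KO_PBS, at 5.84 CPM against 3.79 CPM (log2FC 0.62, SE 0.176, adjusted p = 0.0288). Slc7a2 was lower, at 38.7 CPM against 83.7 CPM (log2FC -1.11, SE 0.316, adjusted p = 0.0326), with overlap of the groups. In the methionine cycle and salvage pathway, which recycles the by-product of the synthases, 2 of 10 were lower, beside 5.12% of all genes, and none higher: Apip (log2FC -0.34, SE 0.0799, adjusted p = 0.0118) and Adi1 (log2FC -0.46, SE 0.124, adjusted p = 0.0232). Of 10 measured genes 9 had a negative log2FC, with a median of -0.22. When libraries were scaled by their totals, the log2FC was -0.19 for Apip (adjusted p = 0.183) and -0.31 for Adi1 (adjusted p = 0.0886).

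Of 4 transcription factors known to act on polyamine genes, Myc, an activator of Odc1, was higher (4.96 CPM against 2.46 CPM, log2FC 1.002, SE 0.297, adjusted p = 0.0364). The other 3 did not pass. Odc1 itself did not pass, as given above. None of 4 genes for the hypusination of eIF5A and none of 8 tested genes of polyamine transport passed. Over the 6 lists, 6 of 35 tested genes passed by edgeR, 7 by DESeq2 and 10 by limma-voom in KO_PBS against WT_PBS, where 12.6% of all genes passed by edgeR. In KO_ASO against KO_PBS, 0 of 35 passed by edgeR, where 3.64% of all genes did. An unadjusted p under 0.05 was found for 7 of 35, beside 17.7% of all genes. DESeq2 called Apip (adjusted p = 0.0438) and Adi1 (0.0314), both higher in KO_ASO, beside 1056 of all genes. By limma-voom Adi1 passed (0.0137), beside 1186 of all genes. Of the 6 genes that passed in KO_PBS against WT_PBS, the largest shifts here were -0.81 for Myc (SE 0.296, adjusted p = 0.147) and 0.61 for Slc7a2 (SE 0.315, adjusted p = 0.338).

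Several of these calls were close to the threshold and were lost when 1 mouse was left out, while the log2FC kept its direction: over the 16 fits it ran from 0.50 to 0.74 for Slc7a1, -1.35 to -0.95 for Slc7a2, -0.52 to -0.36 for Adi1 and 0.77 to 1.35 for Myc. Slc7a1 was lost without WT_PBS replicate 2 (adjusted p = 0.0623), 3 (0.0593) or 4 (0.0978) or KO_PBS replicate 1 (0.0965) or 4 (0.0634). Slc7a2 was lost without WT_PBS replicate 2 (0.0950), 3 (0.0509) or 4 (0.0996) or KO_PBS replicate 1 (0.108), 2 (0.0692) or 3 (0.0693). Adi1 was lost without WT_PBS replicate 2 (0.0736) or 4 (0.0596) or KO_PBS replicate 1 (0.0865), and passed in KO_ASO against KO_PBS without KO_ASO replicate 4 (0.0309). Myc was lost without WT_PBS replicate 1 (0.0755), 2 (0.0857) or 3 (0.0788) or KO_PBS replicate 1 (0.0744), 2 (0.0705), 3 (0.0575) or 4 (0.0739). Azin2 and Apip kept their calls without any 1 mouse. Other settings also ended some of these calls: Slc7a2 with library totals (log2FC -0.95, adjusted p = 0.0523) or no filter (-1.11, 0.0983), and Myc with no filter (1.001, 0.0505).

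**Figure D5:**
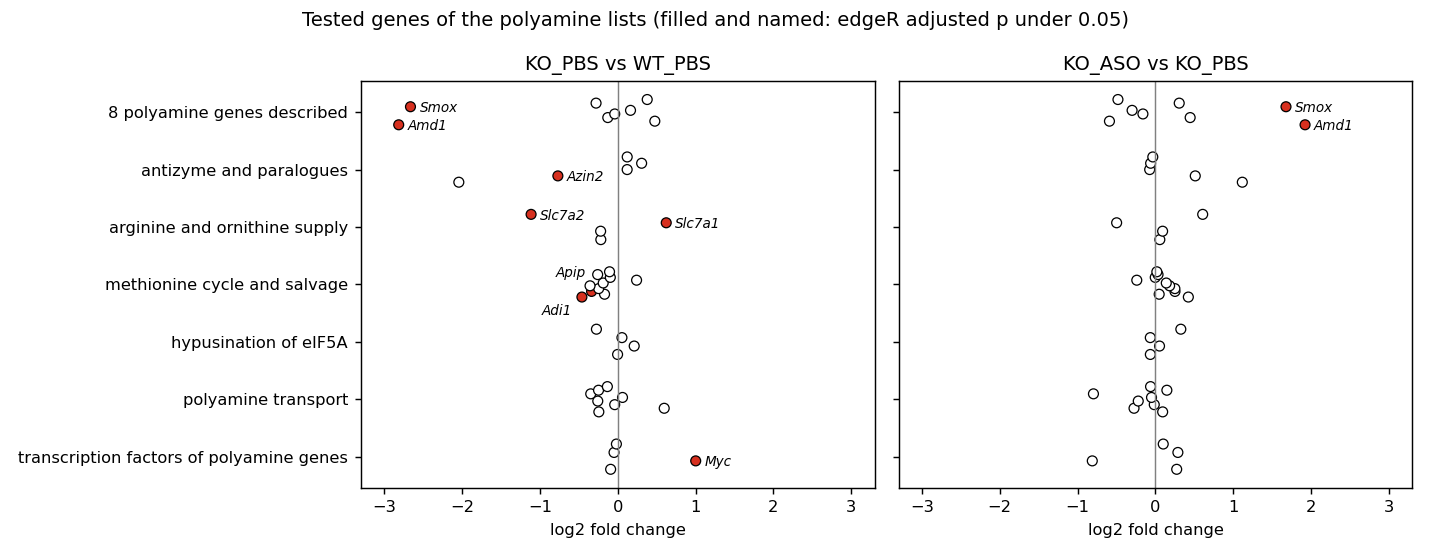
Log2 fold change (horizontal axes) of each tested gene of the 8 members and of 6 further polyamine lists in KO_PBS vs WT_PBS and KO_ASO vs KO_PBS, where filled, named points passed an adjusted p under 0.05. Amd1 and Smox stand apart at -2.81 and -2.66 in the first panel, 6 genes of the other lists passed there between -1.11 and 1.002, and none of these lists has a filled point in the second panel.

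Markers of other cell types and of muscle state moved in the same comparisons. In bulk muscle, fewer cells of a type and less RNA per cell cannot be told apart. The summed level of 12 macrophage markers was 49.9 to 80.3 CPM in WT_PBS, 129 to 385 CPM in KO_PBS and 55.0 to 84.7 CPM in KO_ASO, with 11 of 12 higher in KO_PBS than in WT_PBS, where 7.43% of all genes tested were higher, and 7 of 12 lower in KO_ASO than in KO_PBS, where 2.83% were lower. The 7 genes that rise when a muscle loses its nerve, such as Chrng, the fetal acetylcholine receptor subunit, and Myog, summed to 45.1 to 54.4 CPM in WT_PBS, 153 to 221 CPM in KO_PBS and 67.2 to 109 CPM in KO_ASO, with 7 of 7 higher and then 4 of 7 lower. Of 6 fibroblast markers 3 were higher in KO_PBS and 1 lower in KO_ASO than in KO_PBS.

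The 4 satellite cell markers, among them Pax7, were all lower in KO_PBS, at 5.27 to 6.09 CPM in sum against 9.04 to 12.7 CPM, and in KO_ASO their sum was 6.49 to 9.21 CPM. All 4 had a positive log2FC in KO_ASO against KO_PBS, with a median of 0.51, and 0 of 4 passed by edgeR. The 8 fibre genes summed to 142400 to 180900 CPM in WT_PBS, 105300 to 126700 CPM in KO_PBS and 126900 to 151500 CPM in KO_ASO, and 3 of 8 (Pygm, Tnnt3 and Tnni2) were lower in KO_PBS, beside 5.12% of all genes. No endothelial or nerve marker passed in either comparison, and no marker was at 0 in every library. The part of these shifts in the levels of the polyamine genes was not tested.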

How the data were processed

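RNA of tibialis anterior from 16 mice (TRI Reagent) was sequenced from stranded TruSeq mRNA libraries. The authors deposited raw read counts per gene, 1 table of 29730 Ensembl genes on GRCm38 (mm10). Their processing notes name STAR 2.5.3a, HTSeq 0.6.1p1, cutadapt 1.10 and Bowtie2 2.2.8, without their order. The annotation release, strand setting and read length were not given in the sources used here. All IDs matched GENCODE vM21, the source of coordinates and exon lengths.

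Counts were tested in R 4.3.3 with the quasi-likelihood test of edgeR 4.0.16 (robust fit, TMM scaling, filterByExpr by group, 1 mean per group over all 16 mice), adjusted by Benjamini-Hochberg over all 14960 genes tested with a threshold of 0.05. The filter removed 14770 genes. CPM and RPKM were computed from the counts and TMM-scaled totals. Correlations used log2 CPM with a prior count of 2. The test was checked on simulated data with known changes. DESeq2 1.42.0, limma-voom with sample quality weights (limma 3.58.1, called limma-voom throughout, which changes both the method and the weight of each mouse), other scalings, no filter, the compared groups alone, a replicate block and leaving out each mouse were alternatives. No 2 libraries agreed within sampling noise (chi-square per gene of at least 22.2 within a group), and the biological coefficient of variation common to all genes was 18.7%. Total counts of 27591900 to 40862854 a library set the precision for low genes such as Paox.

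The 8 members, the gene lists and the tests were chosen with earlier results of these data known. The genes named are all members, the genes of the 6 pathway lists that passed by edgeR, Amd2, and the 5 genes most correlated with Amd1 or Smox. Bin1, Dnm2, examples of the marker lists and Oaz2, a call of limma-voom, are named too. Other genes of the pathway lists that only DESeq2 or limma-voom called are not named. Neighbours on the chromosome were added after the values were seen. Amino acid sequences were not used here, and 1 gene of the pathway lists is not reported here.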

Additional observations from a re-analysis of the deposited data

Results flagged for a closer look

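Of 64 groups of 4 mice, from the 8 members and 8 other named genes, 4 held a mouse whose gap to the nearest of the others took up more of the group's range than Dixon's 95% critical value, which chance passes in about 1 of 20 groups. Among members, Srm was high in WT_ASO replicate 1, at 6.316 CPM beside 4.72 to 4.95 CPM in the other 3 mice. In the same mouse Sat1 was low, at 14.69 CPM beside 18.5 to 19.1 CPM. Neither gene passed in a comparison that uses WT_ASO. In KO_ASO, Apip was low in replicate 2 (20.74 CPM beside 22.6 to 22.8 CPM) and Adi1 in replicate 4 (34.91 CPM beside 43.4 to 44.9 CPM), and both are enzymes of methionine salvage.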

How the results depend on the processing

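The calls of Amd1 in both main comparisons and of Smox in KO_PBS against WT_PBS held under every alternative. The Smox call in KO_ASO against KO_PBS was lost with no filter on low counts (log2FC 1.67, adjusted p = 0.129), with the compared groups alone (1.68, 0.0943) and with a replicate block (1.69, 0.0611), beside a log2FC of 1.68 as reported. In these settings the call was lost while the size of the change hardly moved. With the compared groups alone Azin1 passed in its place (-0.59, 0.0368). The number of members called became 4 in KO_PBS against WT_PBS with library totals alone, which adds Azin1 and Srm, 1 in KO_ASO against KO_PBS with no filter and 1 with the replicate block, and 1 in the interaction by DESeq2 and 1 by limma-voom. Leaving out 1 mouse gave 2 to 3, 1 to 2 and 0 to 1 in these 3 comparisons. Scaling by library totals moved the median log2FC of all genes in KO_PBS against WT_PBS from -0.01 to 0.14. Of 328 member values under the other settings 308 kept direction and side of the threshold, as did 721 of 768 with 1 mouse left out.

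Signs turned only for differences that did not pass. With library totals, log2FC became 0.0262 for Odc1 and 0.11 for Paox in KO_PBS against WT_PBS, and -0.0644 for Smox and -0.00301 for Sat1 in WT_ASO against WT_PBS. Smox in WT_ASO against WT_PBS also became -0.19 by limma-voom, -0.00898 with no filter and -0.0819 with the replicate block, and Azin1 in the interaction became 0.0716 by limma-voom. With 1 mouse left out, the ranges that cross 0 were -0.286 to 0.0103 (Odc1) and -0.13 to 0.0709 (Paox) in KO_PBS against WT_PBS, -0.0842 to 0.377 (Odc1), -0.0455 to 0.157 (Srm) and -0.21 to 0.19 (Smox) in WT_ASO against WT_PBS, -0.27 to 0.16 (Azin1) and -0.10 to 0.20 (Sms) in KO_ASO against WT_PBS, -0.16 to 0.40 (Odc1) in KO_ASO against WT_ASO, and -0.0289 to 0.531 (Odc1), -0.31 to 0.12 (Azin1) and -0.0539 to 0.279 (Sms) in the interaction.

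Counts over all genes were less stable. KO_ASO against KO_PBS gave 544 genes, 1056 by DESeq2, 1186 by limma-voom with sample quality weights and 300 with the compared groups alone. WT_ASO against WT_PBS gave 1 gene, 33 by DESeq2, 3 with no filter and 2 with the replicate block. KO_ASO against WT_PBS gave 6, and 95 by DESeq2. KO_ASO against WT_ASO gave 11, and 422 by DESeq2, 2 by limma-voom, 6 with DESeq2 size factors in edgeR, 44 with the replicate block and 2 with the compared groups alone. The interaction gave 86, and 385 by DESeq2. Without 1 mouse the counts ran from 997 to 2137 in KO_PBS against WT_PBS (1878 with all), 208 to 831 in KO_ASO against KO_PBS, 1 to 4, 4 to 11 and 2 to 19 in the next 3, and 23 to 102 in the interaction. The cause of these shifts was not tested. Replicate numbers were not taken as pairs, because the labels do not say that they are. In no comparison did the deviations of all 4 same-numbered pairs correlate above 0.1. The correlations ran from -0.0777 to 0.435 over all comparisons, and 3 of 4 pairs were above 0.1 in KO_PBS against WT_PBS, WT_ASO against WT_PBS and KO_ASO against WT_ASO. Between mice of different groups and different numbers they ran from -0.382 to 0.195. Among mice of other groups, 14 of 16 mice correlated best with one of their own number. The numbers may thus mark something shared that the labels do not name, which was not tested. With the replicate block Smox lost its call in KO_ASO against KO_PBS (edgeR, adjusted p = 0.0611), and no call of another member changed.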
